A study of Mus musculus with 12 samples.

Results

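Asparagine synthetase (Asns) and 9 amino acid transporters of the plasma membrane (Slc7a1, Slc7a5, Slc7a6, Slc3a2, Slc38a1, Slc38a2, Slc1a4, Slc1a5, and Slc6a9) were followed in mouse embryonic fibroblasts exposed to the methyl donor S-adenosylmethionine, to adenine, or to an inhibitor of the methyl cycle. The genes were chosen by name with earlier results of these data known, and all 10 were found by Ensembl identifier among the 12591 genes of the expression table. RNA was sequenced from fibroblasts of the C57 PER2::LUC strain, which carry luciferase fused to the clock protein PER2, grown to confluence in DMEM/F12 with serum before the medium was changed. There were 12 libraries, from 3 dishes in each of 4 groups, all collected after 24 h. CTL received 3.3 mM HCl alone, and the other groups received the same HCl with 10 μM Deazaneplanocin A (DZ), 1 mM adenine, or 1 mM S-adenosylmethionine (SAM). HCl was the solvent of adenine, so no dish was free of it. The dishes are cultures of the same kind of cell and the labels tie none to a separate embryo, so the p-values measure the spread between dishes, and confluent cells in contact with each other are the only growth state sampled.

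Cells take up amino acids through carriers that differ in the substrates they accept. Slc3a2 encodes the heavy chain of heteromeric carriers, a glycoprotein that brings a light chain such as Slc7a5, Slc7a6, or Slc7a11 to the membrane. Slc38a2 and Slc1a5 load the cell with glutamine and other small neutral amino acids, some of which are then exchanged for leucine and its relatives through Slc7a5. When amino acids run short, the kinase GCN2 (Eif2ak4) and the transcription factor ATF4 are known to raise Asns and many carriers, while mTORC1 responds to the amino acids that have entered. DZ inhibits AHCY, the enzyme that clears S-adenosylhomocysteine, and is an analog of adenosine. Adenine is the purine base that SAM carries within its adenosyl group.

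SAM lowered 9 of the 10 genes and raised 1, in a comparison that called 69.3% of all genes. The largest fall was that of Slc1a5, to 18.7% of CTL, followed by Slc6a9 (20.5%), Slc7a5 (21.1%), Asns (24.1%), Slc7a1 (34.5%), and Slc1a4 (38.5%). Slc3a2, Slc38a2, and Slc38a1 fell less, to 52.1%, 58.8%, and 63.5% of CTL. Slc7a6 went the other way, to 136% of CTL. Against this, DZ raised 6 of the genes and lowered 3, by at most 1.44-fold in either direction (45.9% of all genes called), and adenine lowered 8 and raised 1 (61.6% of all genes called). Levels were measured per library as log2 CPM, in which the reads of a gene are scaled to the size of its library, and a change was called at an FDR of 0.01 with limma's test, adjusted over all genes by the Benjamini-Hochberg method. In such bulk RNA, fewer cells that express a gene and less of its RNA per cell cannot be told apart.

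**Figure D1:**
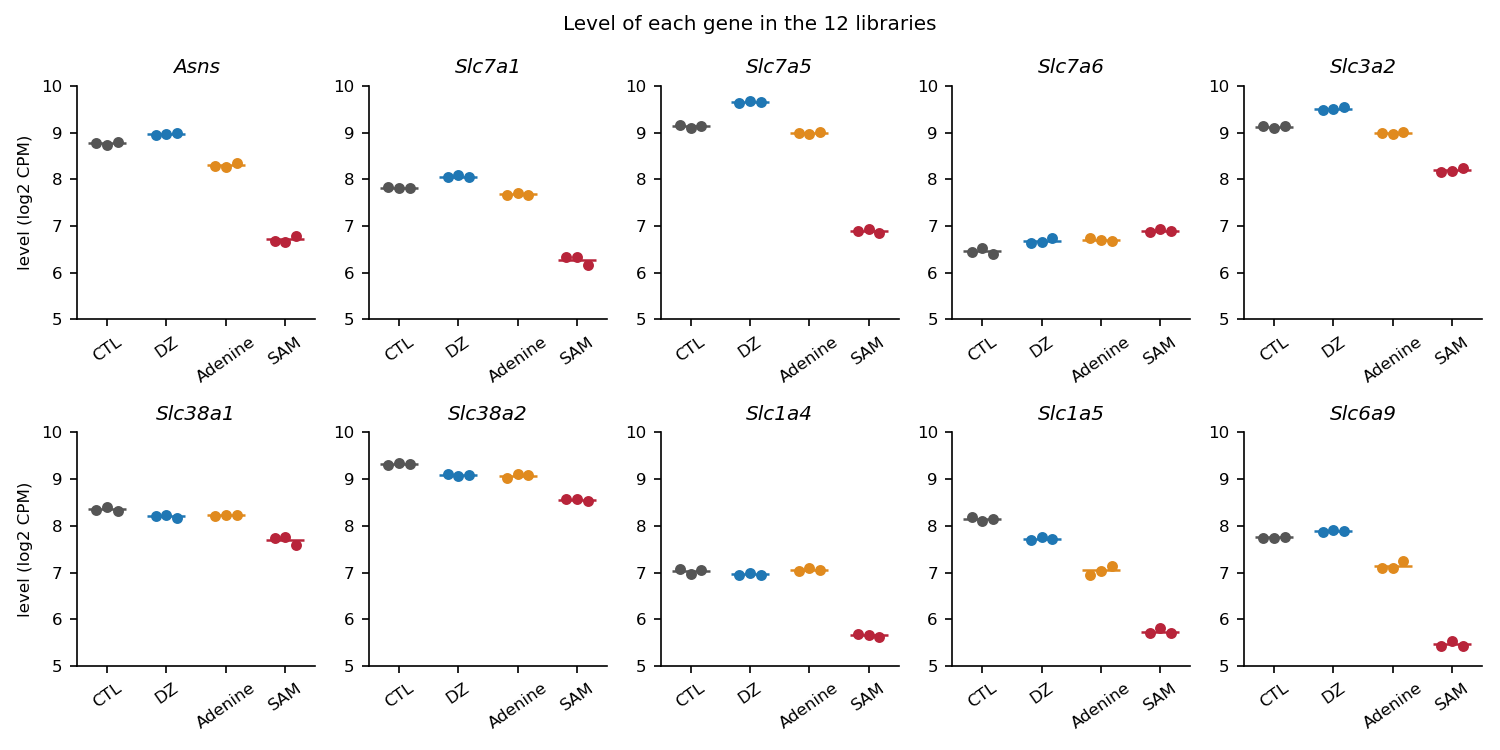
Level of each of the 10 genes, in log2 CPM, in the 12 libraries. Points are dishes, in replicate order from left to right, and short bars are means of 3. The SAM points lie below those of every other group in 9 panels and above them in the panel of Slc7a6.

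The libraries held between 45649534 and 56789090 reads on the listed genes, and each gene studied here had from 2154 to 40575 reads in a library. The third SAM library stood apart from the other SAM dishes, since a chi-square test of its reads gave 15.7 and 19.1 per degree of freedom against them, and all other pairs within a group gave 4.76 to 7.07. It held the lowest of the 3 SAM values of Slc7a1, Slc7a5, Slc38a1, Slc38a2, Slc1a4, and Slc6a9, and the highest of Asns and Slc3a2. Every call under SAM held without it. Among markers of the labelled cell type, 9 of 12 fibroblast genes were in the table, Dcn, Lum, and Fap not, and their summed level was 14.47 to 14.50 log2 CPM in CTL, 14.81 to 14.84 in DZ, 14.65 to 14.79 in Adenine, and 14.04 to 14.16 in SAM. The lower sum in SAM was that of Fn1, at 13.55 to 13.57 in CTL and 11.85 to 12.07 in SAM, whereas Col1a1, Col1a2, Col3a1, Pdgfra, Pdgfrb, Thy1, and Vim were higher in every SAM dish than in every CTL dish and Col5a1 overlapped. No endothelial, epithelial, or muscle marker out of 6, 7, and 5 was in the table. Of 9 leukocyte markers only Cd68 was, at 1.60 to 2.00 in CTL, 1.45 to 1.92 in DZ, 3.44 to 3.63 in Adenine, and 3.96 to 4.14 in SAM, whereas Ptprc, Csf1r, Adgre1, and Itgam were not. The part of these shifts in the results was not tested.

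Asns makes asparagine from aspartate with glutamine as the nitrogen donor, and lies on chromosome 6 (7671667 to 7728461, minus strand, GRCm39). Its level in the 3 CTL dishes was 8.77, 8.74, and 8.80 log2 CPM, in DZ 8.94, 8.97, and 8.99, in Adenine 8.29, 8.27, and 8.35, and in SAM 6.69, 6.67, and 6.79. No 2 of the 4 groups overlapped, with DZ highest and SAM lowest. Relative to CTL, the log2 fold change was 0.20 ± 0.035 (SE) with DZ (adjusted p = 2.03e-04), -0.47 ± 0.035 with adenine (adjusted p = 6.77e-09), and -2.05 ± 0.035 with SAM (adjusted p = 2.19e-16). The fall with SAM was thus 4.15-fold, and that with adenine 1.39-fold.

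Because the genes fell together with SAM, their promoters were searched for 3 short motifs on both strands, in RefSeq windows of 300 bases (250 before the start and 50 after it, GRCm38.p6). Windows were found for 7 of the 10 genes, 11 windows in all, and none for Slc7a5, Slc38a1, and Slc1a5. TGATGNAA, the core of the C/EBP-ATF composite element that ATF4 is known to bind, was present in 2 of the 11 windows, in 236 of 11280 windows of genes in the table (2.09%), and in 1304 of all 32851 windows (3.97%). The 2 genes were Asns, with the match starting at base -23 on the gene's strand, and Slc1a4, with the match starting at base -4 on the other strand. CRE (TGACGTCA), which stood in 3.03% of windows of genes in the table, and the E-box (CACGTG), in 10.1%, were each found in 0 of the 11 windows, which says only that these letters are not there. The stretches below hold TGATGNAA in the 2 genes studied here and in the 5 genes with a match that are among the 4 largest changes with SAM in their list of related genes, described later. The match stands in capitals and reads TTNCATCA on the other strand. It overlaps neither of the other motifs there.
Asns, chr6:7693190-7693272, minus strand: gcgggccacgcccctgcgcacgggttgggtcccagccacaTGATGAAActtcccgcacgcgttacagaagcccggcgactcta
Slc1a4, chr11:20332694-20332757, minus strand: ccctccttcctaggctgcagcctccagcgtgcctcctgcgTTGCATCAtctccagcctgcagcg
Slc7a11, chr3:50443632-50443719, minus strand: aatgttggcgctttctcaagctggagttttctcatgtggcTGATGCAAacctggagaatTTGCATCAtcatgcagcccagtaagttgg
Pycr1, chr11:120643804-120643891, minus strand: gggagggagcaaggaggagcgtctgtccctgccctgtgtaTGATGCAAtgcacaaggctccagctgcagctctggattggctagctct
Got1, chr19:43524660-43524747, minus strand: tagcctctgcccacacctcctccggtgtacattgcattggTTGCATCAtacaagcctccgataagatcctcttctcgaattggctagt
Trib3, chr2:152344028-152344057, minus strand: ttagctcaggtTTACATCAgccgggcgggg
Atf3, chr1:191183396-191183483, minus strand: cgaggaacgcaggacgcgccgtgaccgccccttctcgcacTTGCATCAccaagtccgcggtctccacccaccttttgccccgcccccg

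Slc3a2, the heavy chain (chromosome 19, 8684245 to 8701108, minus strand), was at 9.15, 9.11, and 9.14 log2 CPM in CTL, 9.48, 9.51, and 9.55 in DZ, 9.00, 8.97, and 9.01 in Adenine, and 8.16, 8.18, and 8.24 in SAM. The 4 groups did not overlap, and their order was that of Asns. Its log2 fold change was 0.38 with DZ (adjusted p = 3.42e-08), -0.14 with adenine (adjusted p = 5.20e-04), and -0.94 with SAM (adjusted p = 1.47e-13), each with an SE of 0.029. The noncoding RNA gene Snhg1 overlaps Slc3a2 on the opposite strand and changed by -0.70, -1.17, and -1.57 in the same 3 comparisons. The library kit marks strand, but whether the counting used it is not given in the sources used here, so reads of the 2 genes may not be fully separated.

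The light chain Slc7a5, which carries leucine and other large neutral amino acids (chromosome 8, 122607884 to 122634433, minus strand), had the widest span of the 10 genes. Its level was 9.17, 9.10, and 9.14 log2 CPM in CTL and 9.63, 9.68, and 9.66 in DZ, then 9.00, 8.97, and 9.02 in Adenine and 6.89, 6.94, and 6.85 in SAM. The groups did not overlap. The log2 fold change was 0.52 ± 0.030 (SE) with DZ (adjusted p = 1.87e-09), the largest rise of any of the genes with DZ, -0.14 ± 0.030 with adenine (adjusted p = 7.12e-04), and -2.24 ± 0.030 with SAM (adjusted p = 1.99e-17), a 4.74-fold fall.

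Slc7a6 encodes another light chain, which exchanges arginine and lysine for neutral amino acids (chromosome 8, 106895139 to 106925346, plus strand), and was the 1 gene higher than CTL in all 3 treatments. Its values were 6.44, 6.53, and 6.41 log2 CPM in CTL, 6.63, 6.66, and 6.75 in DZ, 6.75, 6.71, and 6.67 in Adenine, and 6.86, 6.94, and 6.89 in SAM. DZ and Adenine dishes overlapped with each other, and neither overlapped with CTL or SAM. The log2 fold change was 0.22 with DZ (adjusted p = 2.47e-04), 0.25 with adenine (adjusted p = 3.87e-05), and 0.44 with SAM (adjusted p = 5.60e-08), with an SE of 0.040.

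Slc7a1, a carrier of arginine and lysine that needs no heavy chain (chromosome 5, 148264220 to 148336848, minus strand), was at 7.83, 7.81, and 7.81 log2 CPM in CTL, 8.04, 8.08, and 8.05 in DZ, 7.67, 7.71, and 7.67 in Adenine, and 6.34, 6.34, and 6.16 in SAM. All groups were apart, and the order was again DZ, CTL, Adenine, SAM. The log2 fold change was 0.24 with DZ (adjusted p = 9.45e-05), -0.13 with adenine (adjusted p = 6.88e-03), and -1.54 with SAM (adjusted p = 2.17e-14), with an SE of 0.040. The small change with adenine was lost when any CTL or Adenine dish was left out (-0.15 to -0.13). Thus Slc7a1 and Slc7a6, the 2 carriers of cationic amino acids among the genes studied here, had log2 fold changes of opposite sign with SAM. Among the other transporters described later, the cationic carrier Slc7a3 fell with SAM (-1.50) and Slc7a2 was not called (-0.029, adjusted p = 0.601).

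Slc6a9 takes up glycine with sodium and chloride (chromosome 4, 117691703 to 117732395, plus strand). The CTL dishes stood at 7.75, 7.74, and 7.77 log2 CPM, DZ at 7.88, 7.91, and 7.89, Adenine at 7.10, 7.11, and 7.24, and SAM at 5.43, 5.53, and 5.43. The groups did not overlap, and SAM was again the lowest. The log2 fold change was 0.14 with DZ (adjusted p = 5.37e-03), -0.60 with adenine (adjusted p = 1.16e-09), and -2.29 with SAM (adjusted p = 2.08e-16), with an SE of 0.038. The rise with DZ did not pass the threshold when any CTL or DZ dish was left out (0.13 to 0.15). B4galt2, which overlaps Slc6a9 on the opposite strand, changed by -0.19, 0.61, and 0.42 with DZ, adenine, and SAM, opposite in sign to Slc6a9 each time.

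Slc1a5 exchanges glutamine and other neutral amino acids (chromosome 7, 16515265 to 16532731, plus strand) and fell in all 3 treatments. Values were 8.20, 8.10, and 8.15 log2 CPM in CTL, 7.69, 7.77, and 7.72 in DZ, 6.95, 7.04, and 7.15 in Adenine, and 5.70, 5.80, and 5.70 in SAM. CTL, DZ, Adenine, and SAM followed each other downward without overlap. The log2 fold change was -0.42 ± 0.046 (SE) with DZ (adjusted p = 1.62e-06), -1.11 ± 0.046 with adenine (adjusted p = 7.21e-12), and -2.42 ± 0.046 with SAM (adjusted p = 7.99e-16). It was the 1 gene of the 10 that adenine lowered by more than 1 log2 unit, a 2.15-fold fall.

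Slc1a4 belongs to the same family and exchanges alanine, serine, and cysteine (chromosome 11, 20252180 to 20282774, minus strand). It was at 7.09, 6.97, and 7.06 log2 CPM in CTL, 6.95, 7.00, and 6.96 in DZ, 7.03, 7.10, and 7.05 in Adenine, and 5.69, 5.67, and 5.62 in SAM. DZ and Adenine each overlapped CTL but not each other, and SAM lay far below all of them. With DZ the log2 fold change was -0.070 (95% interval -0.15 to 0.0069, adjusted p = 0.108), and with adenine it was 0.021 (95% interval -0.056 to 0.098, adjusted p = 0.622), with a sign that turned under another centring of the libraries. With SAM it was -1.38 ± 0.036 (SE, adjusted p = 2.65e-14), a 2.60-fold fall.

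Slc38a1 and Slc38a2 are sodium-coupled carriers of small neutral amino acids such as glutamine and alanine, and both lie on chromosome 15 on the minus strand (96469298 to 96541851 and 96585266 to 96597894). Slc38a2 was at 9.31, 9.35, and 9.32 log2 CPM in CTL, 9.11, 9.07, and 9.08 in DZ, 9.03, 9.10, and 9.10 in Adenine, and 8.58, 8.57, and 8.54 in SAM. Slc38a1 was at 8.33, 8.40, and 8.33 in CTL, 8.22, 8.22, and 8.17 in DZ, 8.20, 8.24, and 8.23 in Adenine, and 7.75, 7.76, and 7.60 in SAM. For both genes, DZ and Adenine overlapped each other and stood between CTL and SAM. Slc38a2 changed by -0.24 with DZ (adjusted p = 2.92e-06), -0.25 with adenine (adjusted p = 8.39e-07), and -0.77 with SAM (adjusted p = 8.51e-13) on the log2 scale, with an SE of 0.027. Slc38a1 changed by -0.15 (adjusted p = 3.45e-03), -0.13 (adjusted p = 6.50e-03), and -0.65 (adjusted p = 2.84e-10), with an SE of 0.038. The smaller pair of changes of Slc38a1 depended on the dishes: that with DZ was lost without the second CTL dish or the third DZ dish (-0.13 each), and that with adenine when any CTL or Adenine dish but the third CTL dish was left out (-0.14 to -0.11 over all 6 dishes).

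**Figure D2:**
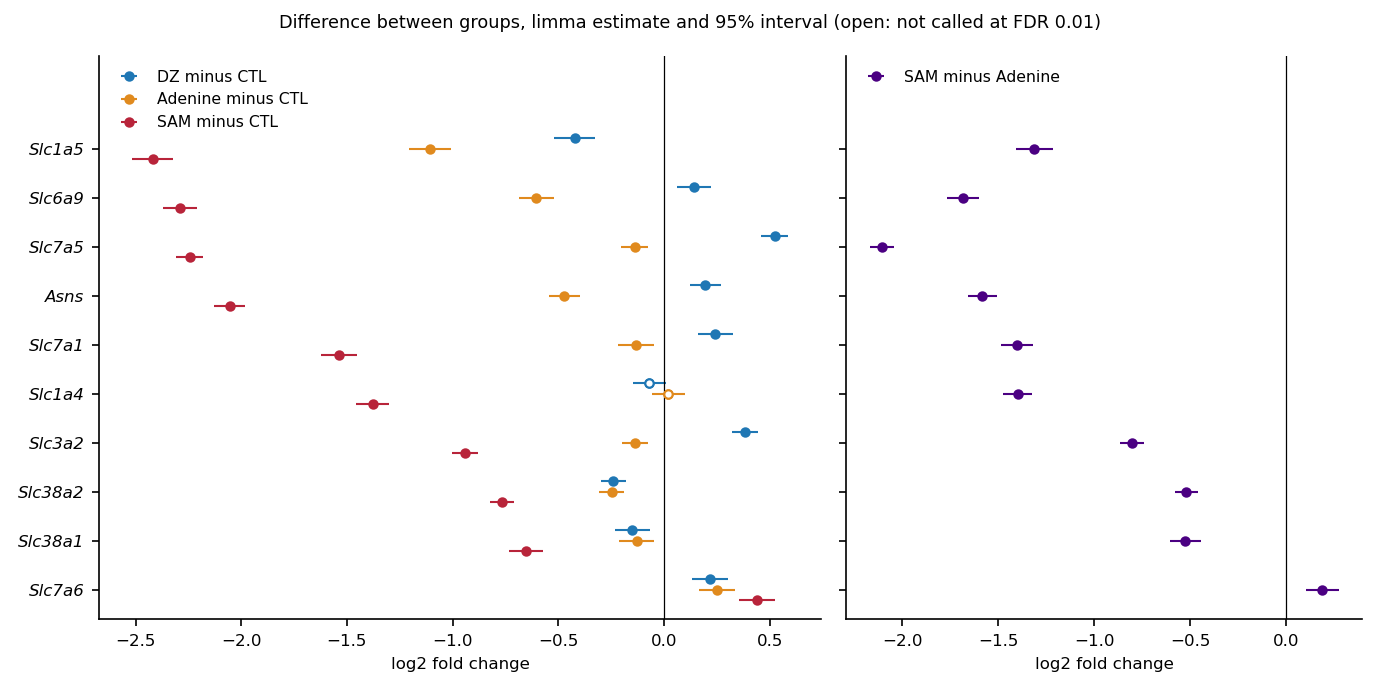
Log2 fold change of each gene with its 95% interval, for the 3 treatments against CTL (left) and for SAM against adenine (right), ordered by the change with SAM. Filled points were called at an FDR of 0.01 and the 2 open points, both of Slc1a4, were not. SAM estimates range from -2.42 to 0.44, those of DZ from -0.42 to 0.52.

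With DZ, the inhibitor of AHCY, 9 of the 10 genes were thus called, against 45.9% of all genes in that comparison. The 6 that rose (22.6% of all genes did) were Slc7a5, Slc3a2, Slc7a1, Slc7a6, Asns, and Slc6a9, and the 3 that fell (23.4% of all genes did) were Slc1a5, Slc38a2, and Slc38a1. The median log2 fold change of the 10 genes was 0.17, and that of all genes -0.0057. Of the 9 changes, 2 went below the threshold without the variance trend, and leaving out a dish left 7 or 8 of them.

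With adenine, 9 of the 10 genes were also called, against 61.6% of all genes, with 8 lower (31% of all genes) and only Slc7a6 higher (30.6% of all genes). The median was -0.14 for the 10 genes and -0.0030 for all genes. Several of these changes were small enough to depend on how the libraries were scaled. With plain read totals in place of the deposited scaling, 5 of the 10 genes were called, against 62.2% of all genes, and the median of all genes was 0.059: Asns, Slc38a2, Slc1a5, and Slc6a9 were lower and Slc7a6 higher, whereas Slc7a1 (-0.072), Slc7a5 (-0.076), Slc3a2 (-0.076), and Slc38a1 (-0.068) were not called.

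With SAM, all 10 genes were called, against 69.3% of all genes, with 9 lower (35.7% of all genes) and Slc7a6 higher (33.7% of all genes). A fall of at least 1 log2 unit was seen in 6 of the 10, Slc1a5, Slc6a9, Slc7a5, Asns, Slc7a1, and Slc1a4, and in 5.62% of all genes. The median was -1.46 for the 10 genes and -0.015 for all genes. Scaling by plain read totals moved the median of all genes to 0.11 and that of the 10 genes to -1.34, with the same 9 lower and Slc7a6 higher. The changes with DZ, adenine, and SAM share the CTL dishes, and DZ was given at another concentration, so their values are set side by side only. Asns, Slc7a1, Slc7a5, Slc3a2, and Slc6a9 rose with DZ and fell with SAM.

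SAM and adenine were given at the same 1 mM for the same 24 h, and so were compared directly, the 1 pair of compounds at a matched dose. All 10 genes differed between them, against 42.7% of all genes. SAM left 9 lower (22% of all genes), 6 of them by at least 1 log2 unit (1.14% of all genes), and Slc7a6 higher (20.8% of all genes). The difference was widest for Slc7a5, at -2.11 (95% interval -2.17 to -2.04, adjusted p = 1.13e-16), which stood in SAM at 23.2% of its level in adenine. Slc6a9 followed at -1.68 (95% interval -1.77 to -1.60), Asns at -1.58 (-1.66 to -1.51), Slc7a1 at -1.40 (-1.49 to -1.32), Slc1a4 at -1.40 (-1.48 to -1.32), and Slc1a5 at -1.31 (-1.41 to -1.21), with adjusted p from 4.61e-12 down to 2.15e-14. Slc3a2 differed by -0.80 (-0.86 to -0.74), and Slc38a1 and Slc38a2 by -0.52 each. Slc7a6 differed by 0.19 (95% interval 0.11 to 0.27, adjusted p = 8.65e-04). The median was -1.36 for the 10 genes and 0.00012 for all genes.

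To compare genes with each other, levels were divided by the length of the canonical transcript (CPM per kb), so a gene that uses other transcripts would be placed otherwise. In CTL the order was Slc3a2 (219.5 ± 3.64, SD, n = 3), Slc7a5 (160.0 ± 3.82), Slc38a2 (137 ± 2.22), Slc1a5 (103 ± 3.36), Asns (89.1 ± 2.02), Slc6a9 (62.0 ± 0.629), Slc38a1 (46.0 ± 1.30), Slc1a4 (33.0 ± 1.35), Slc7a1 (30.9 ± 0.319), and Slc7a6 (23.4 ± 0.984), and no neighbours overlapped. DZ and Adenine changed this order in places, with Asns above Slc1a5 in both. Under adenine the ranges of Slc38a1 and Slc6a9 overlapped, as did those of Slc7a1 and Slc7a6.

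Under SAM the order was Slc3a2 (114 ± 3.34 CPM per kb), Slc38a2 (80.6 ± 1.09), Slc7a5 (33.8 ± 1.03), Slc7a6 (31.8 ± 0.892), Slc38a1 (29.3 ± 1.76), Asns (21.5 ± 1.02), Slc1a5 (19.2 ± 0.825), Slc1a4 (12.7 ± 0.352), Slc6a9 (12.7 ± 0.495), and Slc7a1 (10.6 ± 0.734). Slc7a6 thus moved from the last place to the fourth, and its range touched that of Slc7a5. Slc1a4 and Slc6a9 overlapped as well. Summed over the 9 transporters, the level was 815 ± 8.78 CPM per kb in CTL, 914 ± 10.8 in DZ, 680 ± 10.4 in Adenine, and 345 ± 3.97 in SAM.

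Several of these proteins work in pairs or share substrates, so ratios within pairs are given as a description, with pairs picked after the values were seen. Of the light chains that join Slc3a2, Slc7a5, Slc7a6, and Slc7a11 (the cystine and glutamate exchanger) were in the table, and Slc7a7, Slc7a8, and Slc7a10 were not. In CTL Slc7a5 made up 83.3 ± 0.859% of the CPM per kb summed over those 3, Slc7a6 12.2 ± 0.616%, and Slc7a11 4.54 ± 0.243% (SD, n = 3). Under DZ the shares were 86.6%, 10.3%, and 3.10%, and under adenine 80.3%, 15.4%, and 4.32%. Under SAM they were 50.7 ± 0.555%, 47.7 ± 0.577%, and 1.61 ± 0.0308%, so that Slc7a5 and Slc7a6 RNA were near the same level.

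**Figure D3:**
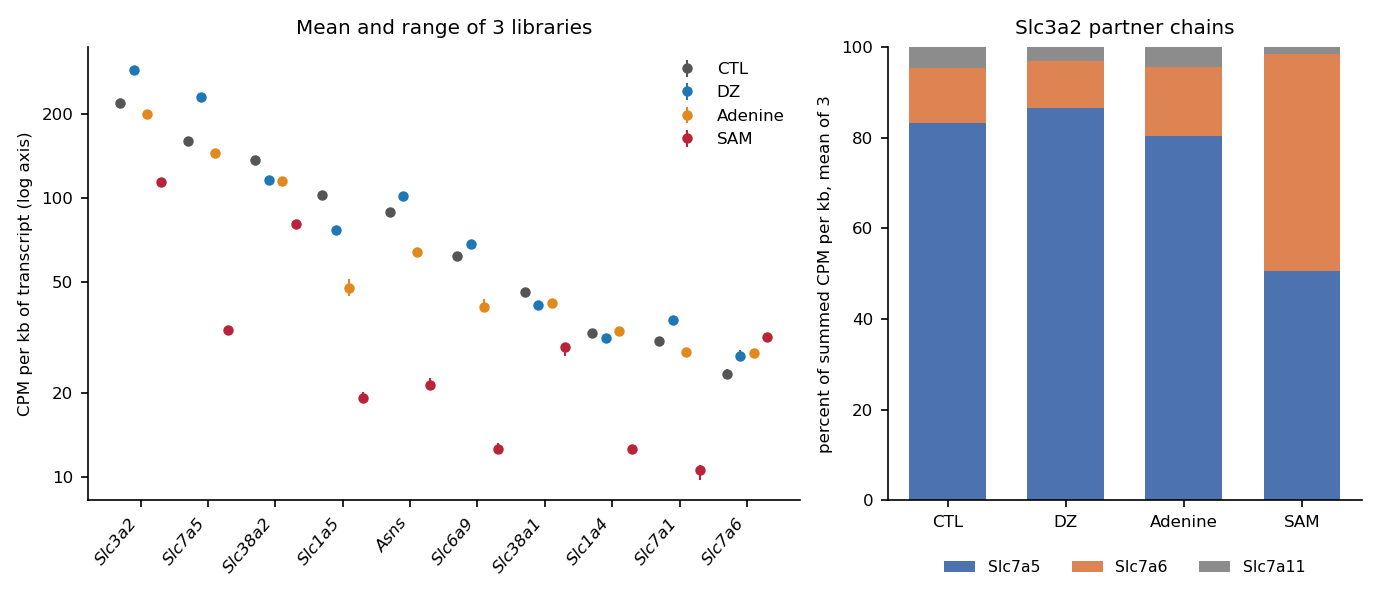
Left, mean CPM per kb of each gene by group on a log axis, with the range of 3 dishes. Right, share of Slc7a5, Slc7a6, and Slc7a11 in their summed CPM per kb, mean of 3 dishes, where Slc7a6 takes 12.2% in CTL and 47.7% in SAM.

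The ratio of Slc7a5 to Slc3a2 per kb, on the log2 scale, was -0.46 ± 0.011 (SD, n = 3) in CTL, -0.32 ± 0.029 in DZ, -0.46 ± 0.0096 in Adenine, and -1.76 ± 0.078 in SAM. The light chain therefore fell further than its heavy chain with SAM, whereas the ratio under adenine was that of CTL. Slc38a1 over Slc38a2 stayed within a narrow span of means, at -1.58 in CTL, -1.48 in DZ, -1.46 in Adenine, and -1.46 in SAM. Slc1a4 over Slc1a5 was -1.64 ± 0.019 in CTL, -1.29 ± 0.011 in DZ, -0.51 ± 0.098 in Adenine, and -0.60 ± 0.065 in SAM. Within this family, then, the ratio under SAM was near that under adenine, although both genes were lower under SAM.

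The genes whose pattern was most like that of each gene were found as the smallest root mean square difference over the 12 libraries, after each gene's CTL mean was subtracted. For Asns these were Gpt2 (0.079 log2 units), a mitochondrial alanine aminotransferase, Mthfd2 (0.13), an enzyme of mitochondrial folate metabolism, Ank2 (0.13), Mei4 (0.14), and Rhbdd1 (0.14). Gpt2 was also the closest to Slc6a9 (0.11), followed by Cyb5r1 (0.12). Slc7a5 was closest to Pycr1 (0.12), which makes proline, and Chd5 (0.19). Slc3a2 was closest to Cars1 (0.080), the cysteinyl-tRNA synthetase, and Nfil3 (0.082), a transcription factor.

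Slc7a1 was nearest to Rps6ka2 (0.094) and Pck2 (0.13), the mitochondrial PEP carboxykinase. For Slc1a4 the nearest were Slit2 (0.12) and Psat1 (0.13), an enzyme of serine synthesis. Akna (0.10) and Ero1a (0.16) were nearest to Slc1a5. Those of Slc38a1 were Prkab2 (0.042) and Dpysl3 (0.048), those of Slc38a2 Ppp1r10 (0.063) and Ubr2 (0.066), and those of Slc7a6 Abcb10 (0.049) and Dtx2 (0.050). The smaller distances belong to genes with small changes, so they do not rank likeness between genes.

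Other genes of the same pathways were taken from 4 lists. Beside their counts stand the shares of all genes called, 45.9% with DZ, 61.6% with adenine, 69.3% with SAM, and 42.7% between SAM and adenine, and a share near these is no result about a list. The other transporters had 52.9%, 70.6%, 76.5%, and 41.2% called in the same order, the enzymes 40%, 75%, 75%, and 75%, the regulators 60%, 75%, 80%, and 75%, and the mTORC1 genes 20.6%, 50%, 70.6%, and 41.2%. Of 29 genes listed as other amino acid transporters 17 were in the table. DZ raised 4 and lowered 5 of them, adenine raised 8 and lowered 4, and SAM raised 8 and lowered 5. The median log2 fold change under SAM was 0.052, beside -0.015 for all genes. SAM lowered Slc7a11 (-3.02, adjusted p = 4.24e-16) and Slc7a3, a cationic carrier (-1.50, adjusted p = 4.52e-09), and raised Slc43a2 (1.51, adjusted p = 1.05e-05) and Slc43a1 (1.33, adjusted p = 3.55e-08), which carry large neutral amino acids without a heavy chain. Adenine raised the last 2 genes by 1.09 and 0.66, and lowered Slc3a1, the heavy chain of another carrier (-0.82), and Slc6a17, a carrier of neutral amino acids (-0.74). With DZ, Slc6a17 (-1.49), Slc3a1 (-0.66), and Slc16a10 (-0.59) fell. Slc43a3, listed by its family and not an established carrier of amino acids, rose (0.96). Slc6a17, Slc3a1, and Slc16a10 were low in CTL, at 2.63, 1.56, and 2.14 log2 CPM. Their SEs were 0.13, 0.16, and 0.15, with DZ and with adenine alike. The median was -0.082 with DZ and 0.031 with adenine. For Slc7a11, the change with adenine was -0.16 (adjusted p = 0.0160) and that between SAM and adenine -2.86 (adjusted p = 3.37e-15). Between SAM and adenine, 4 of the 17 were higher and 3 lower in SAM.

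Of 23 enzymes of asparagine, glutamine, aspartate, and proline metabolism 20 were in the table. DZ raised 8 and lowered 0 of these, among them Aldh18a1 (0.43) and Pycr1 (0.34), which make proline, and Nars1 (0.33), the asparaginyl-tRNA synthetase. Adenine raised 3 and lowered 12, among them Got1, an aspartate aminotransferase (-0.83), Asrgl1, an asparaginase (-0.66), and Gpt2 (-0.59), while Oat, which degrades ornithine, rose (0.78). SAM raised 5 and lowered 10, with Pycr1 (-2.18), Gpt2 (-2.09), Got1 (-1.79), and Nars1 (-1.62) the furthest down. The median was 0.087 with DZ, -0.25 with adenine, and -0.26 with SAM, where Asns itself stood at -2.05. With plain read totals, the same list gave 5 higher and 10 lower with adenine and 9 higher and 9 lower with SAM. Between SAM and adenine, 7 were higher and 8 lower, or 8 and 5 with plain read totals.

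All 20 regulators of the amino acid response were in the table. SAM lowered 13 and raised 3, with a median of -0.72, and the furthest down were the pseudokinase Trib3 (-4.05), the transcription factors Atf3 (-3.79) and Ddit3 (-2.88), and the phosphatase subunit Ppp1r15a (-2.90). Atf4 fell by 1.07 on the log2 scale (adjusted p = 1.89e-14). The 3 that rose were the kinase genes Eif2ak4, which encodes GCN2 (0.52, adjusted p = 5.52e-09), Eif2ak3 (0.52), and Eif2ak1 (0.20). Adenine lowered 11 and raised 4, and the same 4 genes were furthest down, at -1.25, -1.63, -0.85, and -1.25, with Atf4 at -0.27 (adjusted p = 2.79e-07). DZ raised 8 and lowered 4 (12 and 3 with plain read totals), led by Eif2ak2 (1.13), the kinase that responds to double-stranded RNA, and by Atf5 (-0.65), Nupr1 (0.40), and Eif2s1 (0.39). Atf4 was at -0.021 with DZ (adjusted p = 0.534). The median was 0.12 with DZ and -0.22 with adenine. SAM and adenine differed in 15 of the 20, with 13 lower and 2 higher in SAM.

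Of 35 genes of the pathway by which mTORC1 senses amino acids 34 were in the table. SAM raised 12 and lowered 12 of them, with a median of -0.019. Sesn1 (1.28) and Sesn3 (0.92), sestrins that restrain mTORC1, and Nprl2 (0.59), a subunit of the GATOR complex that does so too, rose, and Itfg2 fell (-0.58). Another sestrin, Sesn2, was listed with the regulators and went the other way. It fell with SAM (-1.74, adjusted p = 3.36e-15) and with adenine (-0.38, adjusted p = 2.27e-07), and was not called with DZ (-0.031). Adenine raised 8 and lowered 9, with a median of -0.00082, Sesn1 at 1.25, Sesn3 at 1.04, Castor2 at 0.56, and Flcn at -0.54. DZ raised 3 and lowered 4, with a median of 0.023, Itfg2 at 0.61, the arginine sensor Castor1 at -0.51, Sesn3 at -0.36, and Lamtor5 at -0.24. Plain read totals gave 8 higher and 4 lower with DZ and 15 higher and 9 lower with SAM. Between SAM and adenine, 6 were higher and 8 lower, or 8 and 5 with plain read totals.

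**Figure D4:**
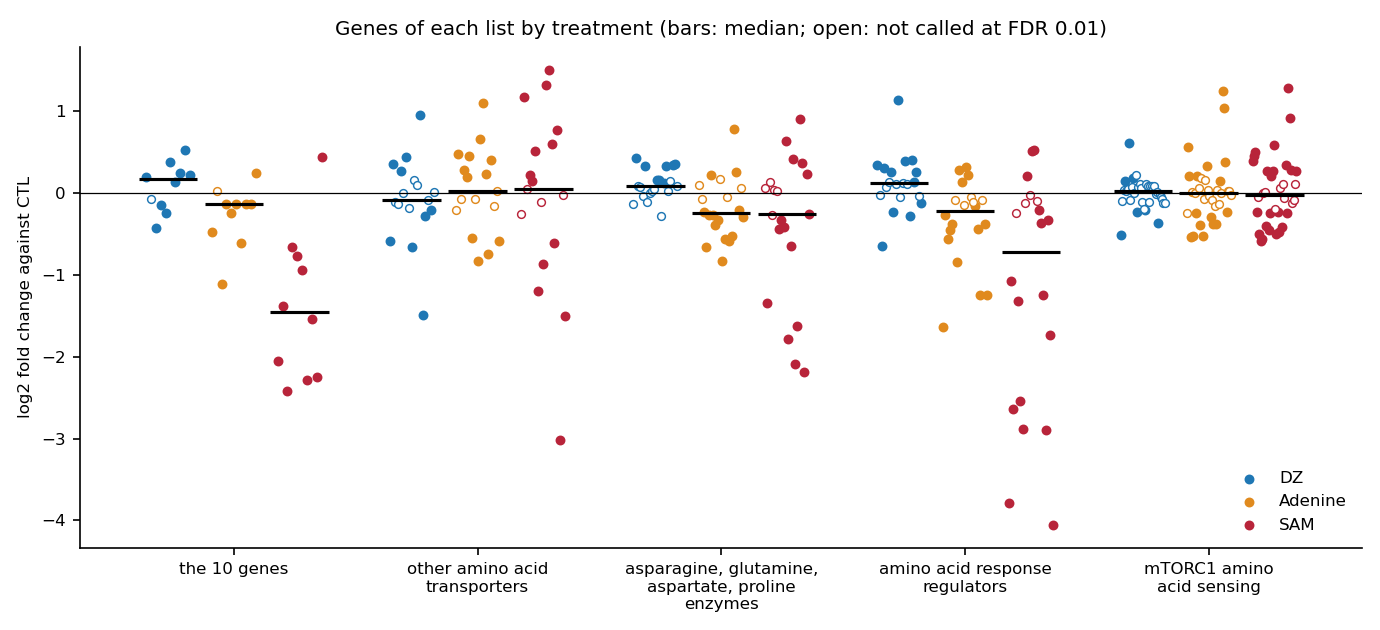
Log2 fold change against CTL of the 10 genes and of 4 lists of related genes, by treatment. Each point is a gene, filled where called at an FDR of 0.01, and black bars are medians, which under SAM are -1.46 for the 10 genes, -0.72 for the regulators, and between -0.26 and 0.052 for the other lists.

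Over the 4 lists, RefSeq windows were found for 72 genes, and TGATGNAA stood in 8 of their 77 windows (10.4%, against 2.09% of windows of genes in the table), in Trib3, Atf3, Chac1, Nupr1, Slc7a11, Pycr1, Got1, and Lamtor4. Slc7a11 held it at 2 places, as printed above. With SAM, 7 of these 8 genes fell, with log2 fold changes between -4.05 and -1.24, and Lamtor4 rose by 0.27 (adjusted p = 2.26e-03). Among all 224 genes of the table with the letters in a window, 99 were lower with SAM (44.2%, against 35.7% of all genes) and 32 by at least 1 log2 unit (14.3%, against 5.62%). Without the 10 genes and the lists, which were chosen with results of these data known, these were 90 (42.1%) and 23 (10.7%) of 214 genes. The shares of all genes include genes without a window, so the sets compared differ. A link between the letters and the fall was not tested. Among the genes studied here, Asns and Slc1a4 hold the letters, and Slc7a1 and Slc6a9 fell by more than 1 log2 unit with SAM without them in any of their windows.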

How the data were processed

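Trimming by the authors used Trimmomatic, alignment to GRCm39 used HISAT2 with the GENCODE vM27 annotation, and StringTie quantified the transcripts. The authors kept genes of at least 1 CPM in all samples. The table the authors deposited, made with edgeR, holds log2 CPM of 12591 genes, and all 12 columns were used. The scaling method is not given in the sources used here. Whole reads were recovered from these log2 values with a prior count of 2 (100% of values within 0.01 of a whole number), and gave the depth and the voom and read-total alternatives. Scaling factors were 0.962 to 0.968 in CTL, 0.980 to 0.982 in DZ, 1.003 to 1.008 in Adenine, and 1.047 to 1.054 in SAM.

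Differences were tested in R 4.3.3 by limma 3.58.1 (lmFit, contrasts, and eBayes with a variance trend, 1 model of all 12 libraries), with Benjamini-Hochberg adjustment over 12591 genes and an FDR of 0.01. Tested on simulated data of 12591 genes, the model recovered 96% of changes of 0.5 log2 units with DZ, 98% with adenine, and 94% with SAM. False calls were 1.49% to 2.96% of calls. The simulation changed only 50 genes of this size in each treatment, with a fixed spread. It had no shift in scaling between groups, so its rates do not carry over to small changes that depend on scaling. Symbols, positions, and transcript lengths are from GENCODE vM39, matched for 12575 identifiers. Promoter windows are from RefSeq. Python 3.11.15, numpy 2.4.6, pandas 2.3.3, and matplotlib 3.10.9 made the tables and plots.

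The 10 genes and the lists were chosen with earlier results of these data known. Named beside them are up to 4 called genes of each list and comparison with the largest change, and the genes of nearest pattern, 5 for Asns and 2 for each other gene. A gene picked by this rule is left out of the text. Atf4, Sesn2, Slc7a2, the Eif2ak genes raised with SAM, and Slc7a11 under adenine were picked after their values were seen. So were the genes that overlap Slc3a2 and Slc6a9 and the list genes with the motif, some of them outside that rule. Alternatives were robust empirical Bayes, a fit without the variance trend, a filter at a log2 value of 1 in every library, median centring, plain read totals, log2(CPM + 1), voom, an FDR of 0.05, a required log2 fold change of 1, separate models, a replicate block, and leaving out each library.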

Additional observations from a re-analysis of the deposited data

How the results depend on the processing

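Over the 10 genes, 4 comparisons, and all alternatives, 624 of 680 values kept their direction and their side of the threshold, 53 fell below the threshold, and 3 changed sign. A required log2 fold change of 1 left 0 of the 9 genes called with DZ, where 9 passed at an FDR of 0.01 by limma, by voom, and at an FDR of 0.05. It left 1 of 9 with adenine, 6 of 10 with SAM, and 6 of 10 between SAM and adenine. Plain read totals left 5 of 9 with adenine. Leaving out each library gave 7 to 8 genes with DZ, 7 to 8 with adenine, and 10 in both comparisons of SAM. The sign of Slc1a4 with adenine, 0.021 and not called, turned to -0.030 with median centring, and ranged from -0.013 to 0.045 with a dish left out, negative without the second CTL dish (-0.013) or the second Adenine dish (-0.00081). Slc6a9 with DZ and Slc7a1 and Slc38a1 with adenine were also lost without the variance trend, as was Slc38a1 with DZ, and Slc6a9 with DZ was lost with median centring. The cause was not tested. Among the lists, plain read totals raised the mTORC1 genes called with DZ from 7 to 12.

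Whether the replicate numbers pair the dishes is not settled here. Libraries of the same number, as deviations from group means, correlated across genes with r from -0.142 to 0.181 (median 0.014). Those of different numbers gave -0.150 to 0.117 (median -0.012), and weak correlations cannot exclude a pairing. With a replicate block 9, 9, 10, and 10 of the 10 genes were called with DZ, with adenine, with SAM, and between SAM and adenine, and 5762, 7739, 8734, and 5337 of all genes, against 5782, 7753, 8731, and 5382 without it. Each of the 10 genes had at least 2154 reads in every library, and genes under 1 CPM in any library were not analysed here.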
